A study of Mus musculus with 4 samples.

Results

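The genes described here are 51 cell cycle and DNA replication genes, chosen by symbol from a fixed list of cyclins, cyclin-dependent kinases (CDKs), CDK inhibitors, E2F transcription factors, origin licensing and replication proteins, and proteins of the spindle and centromere. All 51 were found among the 22096 gene symbols of the deposited tables, and 48 of them reached a mean of 1 FPKM over the 4 embryos and were tested. FPKM is the number of sequenced fragments per kilobase of transcript, scaled to the mapped fragments of the library, so levels can be compared between genes. The 3 genes below that mean were *Cdkn2a*, *Cdkn2b* and *Cdkn2d*, which encode CDK inhibitors.

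In a dividing cell, growth signals raise the D-type cyclins, which bind Cdk4 and Cdk6 and phosphorylate the retinoblastoma pocket proteins. This frees E2F factors to switch on genes for DNA replication, and later the B cyclins with Cdk1 drive entry into mitosis. The palatal shelves grow out from the maxillary processes largely by division of their neural crest-derived mesenchyme before they elevate and fuse. The study asked whether the forkhead factor Foxf2 acts within this mesenchyme on shelf growth. By BrdU labeling of sections at embryonic day 13.5, it reported reduced proliferation in the anterior, posterior and nasal middle mesenchyme of *Foxf2*-/- embryos. The comparison here asks a different question, whether the transcripts of the cell cycle machinery differ in level when Foxf2 is absent.

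RNA was sequenced from 4 littermate embryos at embryonic day 13.5, all of mixed background and all carrying the *Osr2RFP*/+ reporter allele. RFP-positive cells were sorted from the whole palatal shelves of each embryo, and each embryo gave 1 library. The mutant group was 2 *Foxf2*-/- embryos, and the controls were 1 embryo with no *Foxf2* mutation (*Osr2RFP*/+, the wild-type control) and 1 *Foxf2*+/- embryo (the heterozygous control), so neither control genotype had a replicate. Where a pair of control values is given below, that of the wild-type control comes first, and a pair of mutant values follows the replicate numbers. *Foxf2* was inactive throughout the mutant embryos and not only in the palate, and the sort joins anterior with posterior and oral with nasal mesenchyme.

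*Foxf2* was at 85.4 FPKM in the wild-type control, 45.1 in the heterozygous control, and 1.41 and 2.28 in the mutants, which follows the labels. The palatal mesenchyme markers, such as *Osr2* and *Prrx1*, were all above the filter, and their summed FPKM was between 1123 and 1400. The endothelial markers summed to between 0.42 and 1.5 FPKM, with *Cldn5* at 0 in every embryo, and the skeletal muscle markers to between 0.48 and 0.99, with *Myog* at 0. Epithelial markers summed to between 7.72 and 9.92, macrophage markers to between 18.0 and 28.7, neuron and Schwann cell markers to between 3.91 and 7.64, and bone and cartilage markers to between 82.2 and 87.0. The red blood cell markers were the exception, with 297 FPKM in the wild-type control, 1819 in the heterozygous control, and 1593 and 4352 in the mutants, and all 7 of those tested had a log2 fold change above 0. The part of these cells in the results was not tested. Relative depth was between 1 and 1.19 times that of the wild-type control, and read numbers are unknown since no counts were given. In a bulk sample, fewer cells of a type and less RNA per cell cannot be told apart.

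Most cell cycle genes were at close to the same level in mutants and controls. The log2 fold change was less than 0.2 in size for 37 of the 48. Its median size was 0.110 for the members, beside 0.128 for all genes tested, so this closeness was not particular to the members. *Ccnd1* was the only member more than 1.5-fold from both controls. Between the *Foxf2*-/- and control embryos, limma with Benjamini-Hochberg adjustment called 0 of the 48 members changed at an adjusted p under 0.05 and more than 1.5-fold. Over all 11154 genes it called 7, which is 0.0628%, with 6 higher (0.0538%) and 1, *Foxf2* itself, lower (0.00897%). At an unadjusted p under 0.05 there were 5 members, 10.4% of those tested, against 13.0% of all genes. *Ccnd1*, *Ccne1* and *E2f7* were the higher ones, beside 2.73% of all genes, and *Mcm4* and *Cenpe* the lower ones, beside 10.3%. The estimates were tight for most members: the 95% interval of the fold change lay within 1.5-fold either way for 42 of the 48, compared with 75.3% of all genes.

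**Figure D1:**
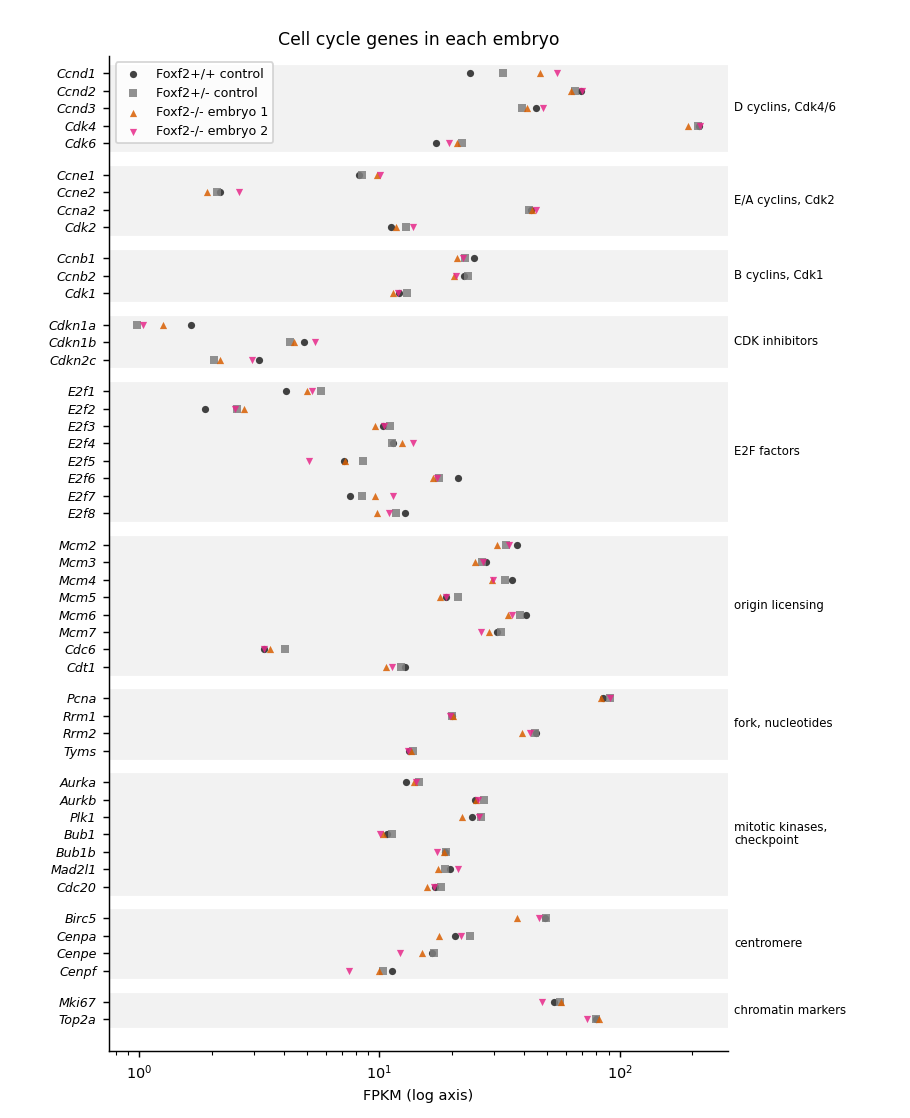
FPKM of the 48 cell cycle genes tested, on a log axis, with 1 symbol per embryo, grouped by role. The 4 embryos lie close together for most genes, *Cdk4* is highest at a mean of 209 FPKM, and *Ccnd1* runs from 23.8 FPKM in the wild-type control to 54.9 in mutant embryo 2.

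The members were well expressed. Their median was 18.8 FPKM, against 7.00 FPKM for all genes tested, and 37 of the 48 had a mean above 10. *Cdk4*, the kinase partner of the D-type cyclins, was the highest at a mean of 209 FPKM. It was followed by the DNA polymerase clamp *Pcna* at 88.0, the topoisomerase *Top2a* at 78.7, the cyclin *Ccnd2* at 66.7 and the proliferation marker *Mki67* at 53.6. The lowest member tested was the CDK inhibitor *Cdkn1a* at 1.23 FPKM.

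Cyclin D1, encoded by *Ccnd1* on chromosome 7 of mm9 from 152115836 to 152125830, couples growth signals to the cell cycle. Its FPKM was 23.8 in the wild-type control, 32.8 in the heterozygous control, and 46.7 and 54.9 in the mutants. Both mutant embryos were above both controls, beside 9.89% of all genes. The heterozygous embryo lay between them and the wild-type control, an upward order that 5.05% of all genes showed. Control embryos averaged 28.3 ± 6.34 (SD, n = 2) and mutants 50.8 ± 5.83 (SD, n = 2), a 1.81-fold difference with a 95% interval from 1.40 to 2.33. On the log2 scale this was 0.86 with a standard error of 0.16, and limma gave it an adjusted p of 0.151, above the threshold.

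Against each control alone, *Ccnd1* was 2.12-fold higher than in the wild-type control and 1.54-fold higher than in the heterozygous control. This made it the only member past 1.5-fold against both controls, a criterion that 1.40% of all genes met, 0.717% being higher and 0.681% lower. With mutant embryo 2 left out, *Ccnd1* no longer passed 1.5-fold against the heterozygous control, and 0 members met the criterion. The adjusted p from limma was 0.0454 with the heterozygous control left out and 0.0433 with the number of *Foxf2* null alleles as a linear term. Over all the settings tried it ranged from 0.0433 to 0.522, while the log2 fold change stayed between 0.63 and 1.10. These fold changes are not all of the same comparison. The linear term gives the fitted difference between the wild-type and *Foxf2*-/- genotypes. With a control left out, the mutants are set against the other control alone. Of the 8 red blood cell markers, *Hba-a2* and *Hbb-b1* had the same order by genotype as *Ccnd1*. The part of these markers in the *Ccnd1* values was not tested.

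The other D-type cyclins overlapped between groups in the deposited FPKM, while after median ratio scaling *Ccnd3* had both mutants above both controls, beside 21.0% of all genes. *Ccnd2* was at 69.3 and 65.2 FPKM in the controls against 62.6 and 69.6 in the mutants, with overlapping groups and a 95% interval of the fold change from 0.845 to 1.14. *Ccnd3* was at 44.8 and 39.1 FPKM in the controls against 41.0 and 48.2 in the mutants, also overlapping, with an interval from 0.884 to 1.28. In the wild-type control *Ccnd1* was the lowest of the D-type cyclins, and in both *Foxf2*-/- embryos it was above *Ccnd3*. As a share of the summed FPKM of the D-type cyclins, *Ccnd1* made up 17.3% in the wild-type control, 23.9% in the heterozygous control, and 31.1% and 31.8% in the mutants. The sum itself was 138 and 137 FPKM in the controls against 150 and 173 in the mutants. The kinase partners overlapped between groups. *Cdk4* was at 213 and 212 FPKM in the controls against 193 and 216 in the mutants, and *Cdk6* at 17.1 and 22.0 FPKM against 21.1 and 19.5.

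**Figure D2:**
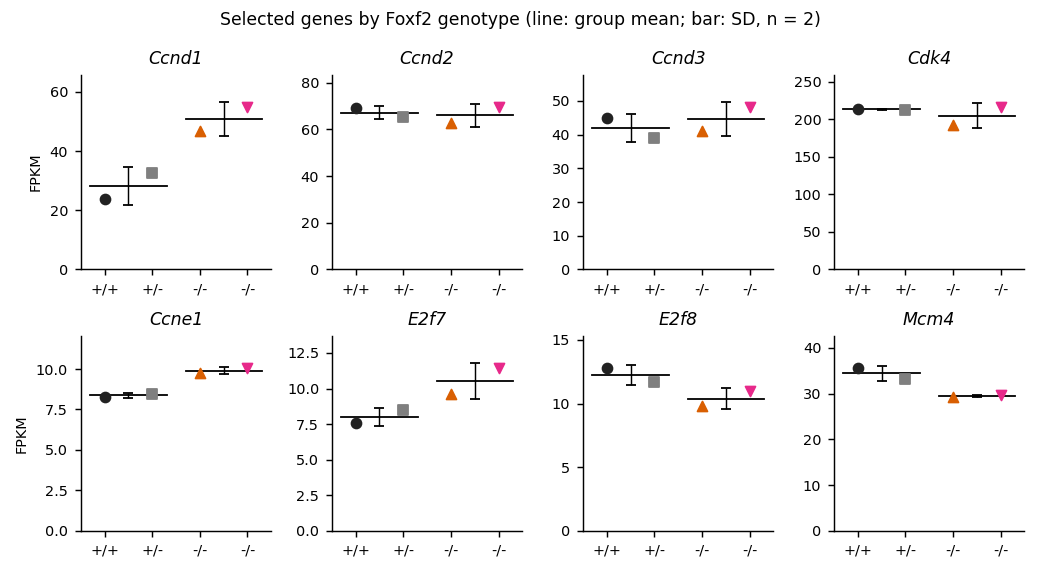
FPKM of 8 cell cycle genes in the *Foxf2*+/+, *Foxf2*+/- and both *Foxf2*-/- embryos, with a line for each group mean and a bar for the SD (n = 2 embryos per group); each vertical axis starts at 0. *Ccnd1* goes from 23.8 FPKM in the wild-type control to 54.9 in the second mutant embryo, *Ccnd2*, *Ccnd3* and *Cdk4* overlap between groups, *Ccne1* and *E2f7* are higher and *E2f8* and *Mcm4* lower in both mutants.

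The CDK inhibitors, which hold cyclin-CDK complexes inactive, were low among the members, with no value above 5.37 FPKM. *Cdkn2a*, encoding p16Ink4a and p19Arf, was listed at 0 in all 4 embryos for both of its transcript entries. *Cdkn2b* (p15Ink4b) was at 0.151 FPKM in the wild-type control and at 0 in the other 3 embryos, and *Cdkn2d* (p19Ink4d) was at 0.113 FPKM in the heterozygous control, 0.115 in mutant embryo 2 and 0 in the remaining embryos. The p27Kip1 gene *Cdkn1b* was the highest inhibitor, at 4.83 and 4.25 FPKM in the controls against 4.41 and 5.37 in the mutants. The p53-responsive *Cdkn1a* (p21Cip1) was at 1.64 and 0.981 FPKM in the controls against 1.26 and 1.03 in the mutants. *Cdkn2c* (p18Ink4c) was at 3.15 and 2.05 FPKM in the controls against 2.16 and 2.95 in the mutants. Groups overlapped for all 3 in the deposited FPKM, though after median ratio scaling *Cdkn1b* had both mutants above both controls, and the intervals were wide, from 0.568 to 1.44-fold for *Cdkn1a* and from 0.673 to 1.47-fold for *Cdkn2c*, so differences within those ranges could not be detected for these genes.

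Of the 8 E2F genes, none passed limma and none was past 1.5-fold against both controls, yet individual genes lay on different sides. *E2f7* encodes an atypical E2F that represses E2F targets. It was at 7.56 FPKM in the wild-type control, 8.47 in the heterozygous control, and 9.63 and 11.4 in the mutants. Both mutants were above both controls, beside 9.89% of all genes, at a 1.31-fold difference (log2 fold change 0.39, standard error 0.12, adjusted p = 0.303 from limma). *E2f8*, the other atypical repressor, was at 12.8 and 11.7 FPKM in the controls against 9.81 and 11.0 in the mutants. Both mutants were thus below both controls, beside 35.8% of all genes (log2 fold change -0.23, standard error 0.11, adjusted p = 0.411 from limma). After median ratio scaling both separations remained, beside 21.0% of all genes above and 21.6% below. The ratio of *E2f7* to *E2f8* FPKM was 0.592 in the wild-type control, 0.724 in the heterozygous control, and 0.981 and 1.04 in the mutants. This ratio was not planned and restates the values of both genes, so its rise is not a further result.

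The activator E2F genes overlapped between groups. *E2f1* was at 4.09 and 5.69 FPKM in the controls against 5.0 and 5.23 in the mutants, *E2f2* at 1.89 and 2.55 and then 2.73 and 2.5, and *E2f3* at 10.3 and 11.0 and then 9.57 and 10.4. Among the remaining E2F genes, *E2f4* was higher in both mutants, at 11.4 and 11.3 FPKM in the controls against 12.4 and 13.8. Such a separation upward was seen in 9.89% of all genes. *E2f5* had the most negative log2 fold change of the members, -0.36 (standard error 0.18, adjusted p = 0.437 from limma), but its mutant value of 7.21 lay above the wild-type value of 7.15 and only the second mutant, at 5.09 FPKM, was below both controls. *E2f6* was at 21.2 and 17.6 FPKM in the controls against 16.8 and 17.4 in the mutants, and the gap between its controls was larger than that between the heterozygous control and either mutant.

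The E and A cyclins with *Cdk2* act from late G1 through S phase. All 4 of these genes had a log2 fold change above 0, a direction shared by 29.7% of all genes, and none passed limma. *Ccne1* (cyclin E1) was at 8.25 and 8.47 FPKM in the controls against 9.73 and 10.0 in the mutants. This was a 1.18-fold difference without overlap, beside 9.89% of all genes with both mutants above (log2 fold change 0.24, standard error 0.10, adjusted p = 0.359 from limma). *Ccna2* (cyclin A2) was at 42.7 and 42.1 FPKM in the controls against 43.1 and 44.9 in the mutants, a difference of 1.04-fold. *Ccne2* was at 2.16 and 2.10 and then 1.92 and 2.60 FPKM, and *Cdk2* at 11.1 and 12.9 and then 11.7 and 13.8, both overlapping. *Cdk2* has 2 transcript entries, of 2288 and 2432 bases, and the longer made up 33.8% of its FPKM in the wild-type control, 20.4% in the heterozygous control, and 19.2% and 13.8% in the mutants. This split between overlapping transcripts is an estimate of the authors' program, and it was singled out after its values were seen.

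Origin licensing loads the Mcm helicase onto DNA in G1 with the help of Cdc6 and Cdt1. All 8 licensing genes had a log2 fold change below 0, from -0.07 for *Mcm3* to -0.22 for *Mcm4*, where 29.7% of all genes were above 0, and all remained within 1.5-fold. Their median was -0.15, compared with -0.0805 for all genes tested, and none passed limma. *Mcm4* was at 35.5 and 33.3 FPKM in the controls against 29.3 and 29.7 in the mutants, 0.858 times the control level (standard error 0.085 on the log2 scale, adjusted p = 0.353 from limma). *Mcm6* was at 40.6 and 38.6 FPKM in the controls against 34.2 and 35.6 in the mutants. *Mcm7* was at 30.8 and 32.1 and then 28.6 and 26.5 FPKM, and *Cdt1* at 12.8 and 12.3 and then 10.6 and 11.3. These 4 genes had both mutants below both controls, beside 35.8% of all genes. *Mcm2* was at 37.6 and 33.6 FPKM in the controls against 31.0 and 34.6 in the mutants, *Mcm3* at 27.9 and 26.8 and then 24.96 and 27.1, and *Mcm5* at 18.9 and 21.2 and then 17.9 and 19.0, with overlapping groups. *Cdc6* was at 3.31 and 4.05 FPKM and then 3.49 and 3.29.

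This downward direction depended in part on the scaling between libraries. Over all genes, 35.8% had both mutants below both controls and 9.89% had both above. After scaling by the median ratio to the geometric mean, which moved the median of all genes from -0.0805 to -0.0015, the shares were 21.6% and 21.0%. *Mcm3* then had a log2 fold change of 0.0066 and the other 7 licensing genes stayed below, with *Mcm4*, *Mcm6* and *Cdt1* still below both controls in both mutants.

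Promoter sequences were compared because licensing genes and mitotic genes are known to be switched on through different elements, E2F sites for the former and the cell cycle genes homology region (CHR) with CCAAT boxes for the latter. RefSeq promoters of GRCm38.p6, from 250 bases before to 50 bases after each start, were matched by symbol for 43 members, with 50 promoters. The members not matched were *Ccnd1*, *Ccnd2*, *Ccne2*, *Ccna2*, *E2f4*, *E2f5*, *Mcm4* and *Aurkb*. On either strand, an E2F word (TTTGGCGC, TTTCGCGC, TTTCCCGC or TTTGCCGC) was present in 24.0% of the members' promoters and in 2.27% of all 32851 promoters. The CHR word TTTGAA together with CCAAT was present in 28.0% and 6.95%. By role, 6 of the 8 promoters of licensing genes held an E2F word and 1 held CHR with CCAAT. In the mitotic kinase and checkpoint group 0 of 6 held an E2F word and 4 held CHR with CCAAT. The centromere group had 0 of 4 and 2. The split was not complete in other roles. In the replication fork and nucleotide supply group 0 of 4 held an E2F word and 0 held CHR with CCAAT. Among the B cyclins and Cdk1, 1 of 3, that of *Cdk1*, held an E2F word, and 2, *Cdk1* among them, held CHR with CCAAT. Of the 8 promoters of E2F genes, 3 held an E2F word and 3 held CHR with CCAAT. These are matches of letters and not measured binding sites.

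The upstream bases of 1 promoter of each kind are shown, both on the minus strand and written 5′ to 3′ up to the start, in lower case with the matched words in capitals. For *Mcm6* (chr1:128359706-128359955) the capitals are E2F words, the first of which overlaps a second match on the other strand, GCGCGAAA.
*Mcm6*: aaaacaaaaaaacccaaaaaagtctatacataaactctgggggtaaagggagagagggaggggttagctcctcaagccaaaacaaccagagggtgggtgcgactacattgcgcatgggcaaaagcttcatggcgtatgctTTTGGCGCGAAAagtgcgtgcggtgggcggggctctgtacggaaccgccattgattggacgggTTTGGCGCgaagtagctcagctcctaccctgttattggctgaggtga
For *Ccnb2* (chr9:70421555-70421804) the capitals are 1 CHR word, 167 bases before the start, and CCAAT boxes 87, 54 and 21 bases before it.
*Ccnb2*: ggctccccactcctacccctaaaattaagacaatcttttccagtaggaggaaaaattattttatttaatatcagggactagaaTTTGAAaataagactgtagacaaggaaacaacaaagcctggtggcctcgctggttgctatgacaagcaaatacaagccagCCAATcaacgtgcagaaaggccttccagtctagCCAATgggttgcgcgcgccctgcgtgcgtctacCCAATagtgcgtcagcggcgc
*Mcm6* was at 0.881 and *Ccnb2* at 0.902 times the control level, within 1.5-fold in both cases. Since 0 of the 48 members were called, the promoter patterns could not be set against called differences.

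At the replication fork and in nucleotide supply, the mutant and control levels were close. *Pcna* was at 85.5 and 90.9 FPKM in the controls against 84.1 and 91.4 in the mutants, with a 95% interval of the fold change from 0.861 to 1.15. The large ribonucleotide reductase subunit *Rrm1* had an interval from 0.871 to 1.15. Thymidylate synthase, *Tyms*, was at 13.2 and 13.8 and then 13.6 and 13.2 FPKM. The small reductase subunit *Rrm2* was lower in both mutants, beside 35.8% of all genes, at 44.8 and 44.6 FPKM in the controls against 39.1 and 42.5. Its ratio of 0.913 did not pass limma (adjusted p = 0.555).

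The B cyclins and Cdk1 form the kinase that starts mitosis. All 3 genes were lower in both mutants than in both controls in the deposited FPKM, at 0.902 to 0.927 times the control level, a separation that 35.8% of all genes showed. *Ccnb1* was at 24.7 and 22.6 FPKM in the controls against 21.0 and 22.3 in the mutants, *Ccnb2* at 22.4 and 23.4 and then 20.4 and 20.9, and *Cdk1* at 12.1 and 13.0 and then 11.3 and 11.9. None passed limma, with a lowest adjusted p of 0.503, and after median ratio scaling only *Ccnb1* kept both mutants below both controls, beside 21.6% of all genes.

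The mitotic kinases and the spindle checkpoint genes stayed within 1.5-fold. Their log2 fold changes lay between -0.12 for the checkpoint kinase *Bub1* and 0.04 for *Aurka*, and the lowest adjusted p from limma was 0.640. *Plk1* (Polo-like kinase) was at 24.2 and 26.4 FPKM in the controls against 22.1 and 25.9 in the mutants. For the Aurora kinases the 95% interval of the fold change was 0.875 to 1.21 for *Aurka* and 0.846 to 1.13 for *Aurkb*. *Cdc20*, which activates the anaphase-promoting complex, was at 17.0 and 18.1 FPKM in the controls against 15.7 and 16.8 in the mutants, and *Bub1*, *Bub1b* and *Cdc20* had both mutants below both controls, beside 35.8% of all genes. After median ratio scaling 0 of these genes did, beside 21.6%. The checkpoint protein gene *Mad2l1* was at 19.7 and 18.8 and then 17.5 and 21.2 FPKM.

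The centromere and chromosomal passenger genes had the lowest median of the roles, a log2 fold change of -0.27, which was -0.19 after median ratio scaling. All 4 were below 0 under both scalings, and none passed limma. *Cenpf*, a kinetochore protein, was at 11.3 and 10.4 FPKM in the controls against 9.98 and 7.45 in the mutants (log2 fold change -0.32, standard error 0.15, adjusted p = 0.412 from limma). The kinetochore motor *Cenpe* was at 16.5 and 16.8 FPKM in the controls against 15.0 and 12.2 in the mutants (log2 fold change -0.30, standard error 0.12, adjusted p = 0.353 from limma). *Birc5* (survivin) was at 48.8 and 49.3 and then 37.3 and 46.2 FPKM. The 3 genes had both mutants below both controls, beside 35.8% of all genes, and after median ratio scaling only *Birc5* did, beside 21.6%. The mutants differed from each other: *Cenpe* and *Cenpf* were lowest in mutant embryo 2 and *Birc5* in mutant embryo 1. The centromeric histone *Cenpa* was at 20.6 and 23.8 FPKM in the controls against 17.6 and 22.0 in the mutants, with overlap.

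*Mki67* and *Top2a*, widely used as marks of dividing cells, overlapped between the groups. *Mki67* was at 53.4 and 56.5 FPKM in the controls against 57.3 and 47.4 in the mutants, so that the mutants were the highest and the lowest of the 4 embryos. Its fold change was 0.949 with a 95% interval from 0.795 to 1.13. *Top2a* was at 79.9 and 79.4 FPKM in the controls against 81.9 and 73.5 in the mutants, with an interval from 0.842 to 1.13. With 2 embryos per group, differences inside these intervals were not excluded.

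**Figure D3:**
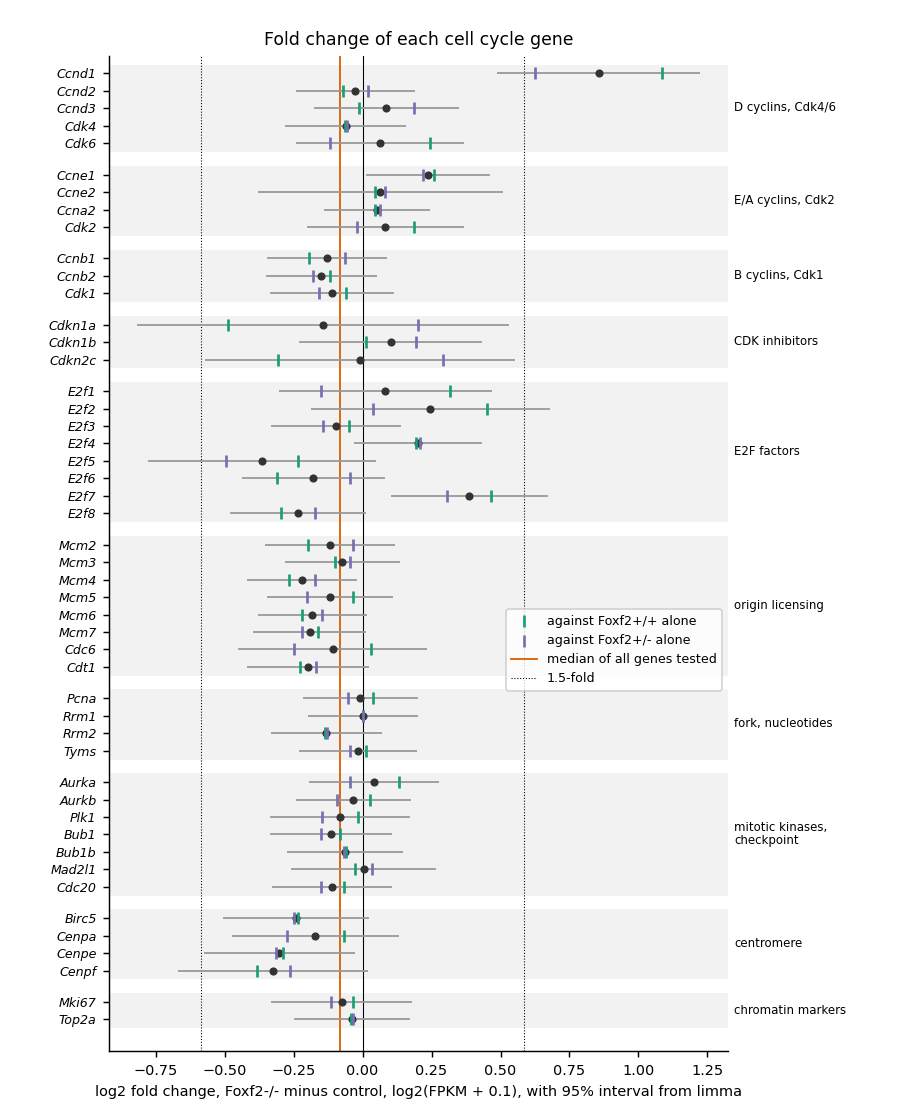
Log2 fold change of each cell cycle gene, *Foxf2*-/- minus control, on the log2(FPKM + 0.1) scale. Black points with bars are the limma estimate and its 95% interval, colored ticks are the mean of the mutants against each control alone, the orange line is the median of all genes at -0.0805 and the dotted lines mark 1.5-fold; only *Ccnd1* has both ticks past 1.5-fold.

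The 48 members had a median log2 fold change of -0.0741, beside -0.0805 for all 11154 genes tested. There were 15 members above 0 and 33 below, and 29.7% of all genes were above 0. After median ratio scaling the medians were 0.0061 and -0.0015, with 25 members above 0 and 23 below, beside 49.6% of all genes above 0. Both mutants were above both controls for 5 members, *Ccnd1*, *Ccne1*, *Ccna2*, *E2f4* and *E2f7*, which is 10.4% beside 9.89% of all genes. Both were below both controls for 16 members, 33.3% beside 35.8% of all genes. Groups without overlap in either direction made up 43.8% of the members and 45.7% of all genes. For 2 embryos against 2, the smallest p of an exact two-sided permutation test is 0.333, so none was run for single genes.

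The shift also varied with the pair of embryos compared. The members' median was -0.11 for mutant embryo 1 against either control, beside -0.1455 (wild-type) and -0.0925 (heterozygous) for all genes. For mutant embryo 2 it was -0.013 against the wild-type control and -0.069 against the heterozygous control. All genes had -0.067 and -0.016 there. The members' median difference between the mutants themselves was 0.074, with embryo 2 higher, about the size of the pooled shift between the groups. All genes moved alike between the mutants, with a median of 0.0785. Between the controls the members' median was 0.019, with the heterozygous control higher, beside -0.054 for all genes. An order by genotype, with the heterozygous control between the wild-type control and both mutants, was seen upward for *Ccnd1*, *Ccne1* and *E2f7*, 6.25% of the members beside 5.05% of all genes. It was seen downward for 8 members, 16.7% beside 23.7% of all genes.

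**Figure D4:**
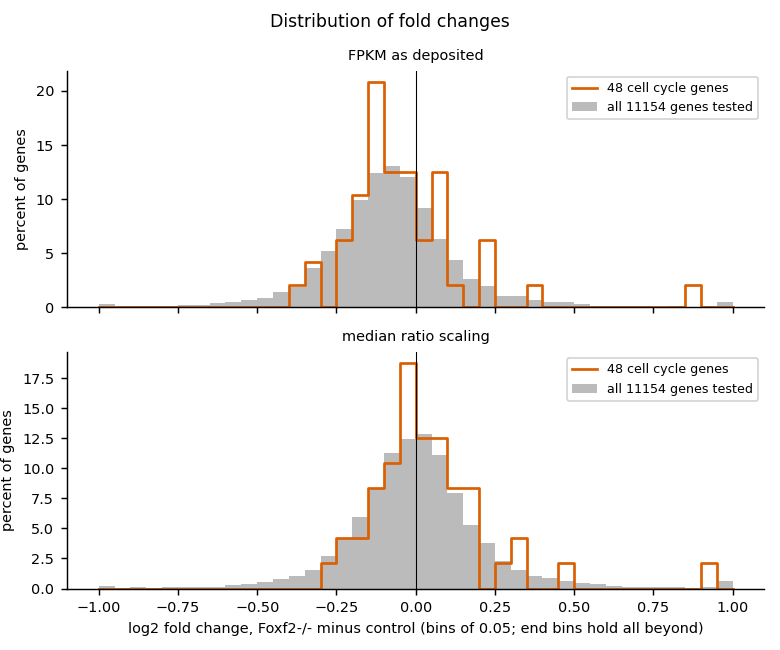
Percent of genes in bins of log2 fold change (0.05 wide), *Foxf2*-/- minus control, for all 11154 genes tested in grey and the 48 cell cycle genes as an orange outline, with FPKM as deposited above and median ratio scaling below. The outline follows the grey bars under both scalings, around -0.08 above and around 0 below, apart from *Ccnd1* at the right.

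Other genes of the same pathways, from lists written for this comparison, gave no call in limma and no gene past 1.5-fold against both controls, except among the histones. All 47 other replication genes, such as the origin recognition complex, the polymerases and replication factor C, were tested. They had a median log2 fold change of -0.17 (-0.0875 after median ratio scaling), with 42 below 0 and 5 above, and the lowest value was -0.30 for *Rfc5* (adjusted p = 0.317 from limma). Both mutants were below both controls for 29 of the 47, a larger share than the 35.8% of all genes. After median ratio scaling they were for 21 of the 47, again a larger share than the 21.6% of all genes. At an unadjusted p under 0.05 from limma, 8 of the 47 were lower, beside 10.3% of all genes, and 0 were higher, beside 2.73%. The list as a whole was not tested. The 63 other mitosis genes had a median of -0.11 (-0.027 after scaling), with 51 below 0 and 12 above, from -0.41 for *Shcbp1* to 0.20 for *Gtse1*. The pocket proteins, E2F partners and DREAM subunits, 12 genes, had a median of -0.038, which turned to 0.041 after scaling. The mitotic regulators *Foxm1* and *Mybl2* in that list had log2 fold changes of -0.07 and 0.06.

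Genes around the cell cycle engine were more spread. Of 19 p53 target and growth arrest genes, 16 were tested, with a median of -0.12 (-0.043 after scaling), 12 below 0 and 4 above. The ends of that range, chosen after their values were seen, were the stress gene *Gadd45a*, at 6.59 and 5.13 FPKM in the controls against 3.12 and 4.19 in the mutants (log2 fold change -0.67), and the kinase *Plk2*, at 18.6 and 24.4 and then 31.0 and 31.4 FPKM (log2 fold change 0.55). The imprinted CDK inhibitor gene *Cdkn1c*, which was not among the members, was at 241 and 146 FPKM in the controls against 185 and 211 in the mutants, far above every CDK inhibitor among the members, and is named here after its values were seen. The 11 *Myc* network genes had a median of 0.13, with 7 above 0 and 4 below. Within them *Mycn* was at 3.01 and 3.58 FPKM in the controls against 4.79 and 4.71 in the mutants, while *Myc* was at 23.5 and 19.6 and then 16.5 and 18.1. None of these genes passed limma.

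Histone genes, whose transcripts accumulate in S phase, were taken as all symbols that begin with *Hist1h*, *Hist2h*, *Hist3h* or *Hist4h*. Beside the core histone genes these include linker histone genes, such as *Hist1h1a*, and pseudogenes, such as *Hist2h3c2-ps*. Of the 68 symbols 51 were tested, and their median log2 fold change was 0.016, with 26 above 0 and 25 below. None passed limma, while 3 were more than 1.5-fold higher and 5 more than 1.5-fold lower against both controls, beside 0.717% and 0.681% of all genes. By size of change the first 6 of the 8 were *Hist4h4*, *Hist1h2ae*, *Hist2h3b*, *Hist1h2bp*, *Hist1h4i* and *Hist1h4j*. Of these *Hist1h4j* was the most abundant, at 15.0 and 19.1 FPKM in the controls against 9.97 and 7.95 in the mutants (log2 fold change -0.92, standard error 0.15, adjusted p = 0.123 from limma), and the other 5 had at most 4.67 FPKM in any embryo. Histone genes have near-identical copies, so how the authors' program divided reads between them is uncertain, and their summed FPKM was 1819 and 2296 in the controls and 1999 and 2277 in the mutants.

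**Figure D5:**
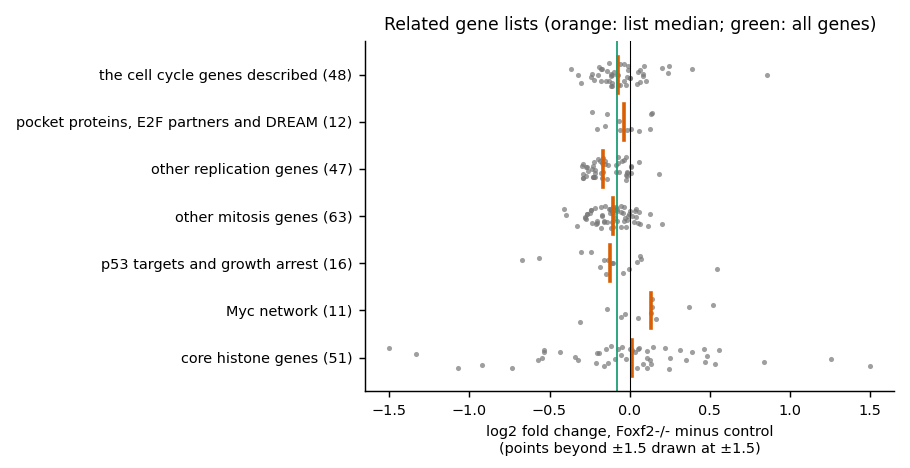
Log2 fold change, *Foxf2*-/- minus control, of each gene tested in the cell cycle set and in 6 related lists, with the number of genes in brackets; points beyond 1.5 either way are drawn at 1.5. Orange bars mark list medians, from -0.17 for the other replication genes to 0.13 for the *Myc* network, the green line marks the median of all genes at -0.0805, and the histone genes are the most widely spread.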

How the data were processed

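Sorted RFP-positive palatal mesenchyme from 4 embryos was sequenced as single-end reads, which the authors aligned to mm9 with Tophat and Bowtie (version 0.12.7 per the submitters' processing notes). The deposited FPKM values, 1 table of 28107 RefSeq transcript entries per embryo, have the form that Cufflinks writes, and its version and options are not given in the sources used here. The deposited coverage is a mean read depth per transcript not scaled for library size, and its ratio to FPKM gave the relative depth.

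Entries of at least 200 bases were summed by symbol, and 10 genes with a failed estimate were left out. The minimum of 200 bases was used because FPKM of shorter entries is unstable. Genes with a mean of at least 1 FPKM over the 4 embryos were tested on log2(FPKM + 0.1), and fold changes on this scale understate those of low genes. limma 3.58.1 in R 4.3.3, with a variance trend, compared the 2 *Foxf2*-/- embryos with the 2 controls, with adjustment over all 11154 genes tested by the Benjamini-Hochberg method. The 1.5-fold criterion compared the mean of the mutants with each control. Python 3.11.15, pandas 2.3.3, numpy 2.4.6, scipy 1.17.1 and matplotlib 3.10.9 were used. The fit was tested on simulated data.

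The members and lists were chosen with earlier results of these data known, so no p-value is given for the set. The genes given with a value in every embryo were fixed as those past 1.5-fold, those without overlap and at least 0.2 on the log2 scale, the D-type cyclins, CDK inhibitors, *Mki67*, *Top2a*, *Pcna* and the Mcm genes, and others are named beside them. In the pathway and histone lists they were genes called or past 1.5-fold against both controls, at most the 6 largest. *Hist1h4k* was added after its values were seen. The limma p-values set the group difference against the spread between littermates within each group, moderated towards a trend over all genes. Among the controls that spread also holds the difference between the *Foxf2*+/+ and *Foxf2*+/- genotypes. Alternatives varied the pseudocount, filter, entry length, scaling, limma design and embryos.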

Additional observations from a re-analysis of the deposited data

How the results depend on the processing

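With 2 embryos per group and no read counts, small differences could not be resolved: standard errors of the members' log2 fold changes ran from 0.082 to 0.29, and genes of a few FPKM were the least precise. The embryos were littermates and formed no pairs of mutant and control, so no paired analysis was run. Fits with 1 embryo left in a group take their spread from the other group. Over the 13 alternative settings of the fit, 47 of the 48 members were never called by limma, and *Ccnd1* was called under 2 of them. The sign of the log2 fold change was the same under every setting for 26 members and changed under at least 1 setting for 22, and none of the 22 was called.

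The number of genes called by limma, 7 in the fit described, was 27 with entries of all lengths, 15 with a linear term in null alleles, 13 with a pseudocount of 1, 20 with a separate mean per genotype, and 0 both with no filter and with no variance trend, where 1966 and 1264 genes had an unadjusted p under 0.05. Leaving out each embryo gave 7 to 38 genes, the highest count without the heterozygous control and 11 without either mutant. Members called by limma went from 0 to 1, *Ccnd1*, with the linear term, and ranged from 0 to 1 as embryos were left out, the 1 being *Ccnd1* without the heterozygous control. The 156 genes past 1.5-fold against both controls became 49 with a filter of 5 FPKM in at least 1 embryo, 291 with entries of all lengths, 639 with no filter, 67 with a pseudocount of 1, 36 at 2-fold, and 213 to 572 as embryos were left out, with 572 without the heterozygous control, 292 without the wild-type control and 240 without mutant embryo 2. The 1 member past it became 0 at 2-fold, and 0 to 1 as embryos were left out, the 0 being without mutant embryo 2. Members with both mutants above both controls ranged from 9 to 13, and those below from 20 to 27, as embryos were left out. These counts are larger since fewer embryos have to be separated, and no share of all genes was set beside them. Under median ratio scaling the 16 below became 7, from 33.3% to 14.6% of the members, while all genes went from 35.8% to 21.6%. The 5 above became 7, from 10.4% to 14.6%, while all genes went from 9.89% to 21.0%.

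The members' median of -0.0741 became 0.0061 under median ratio scaling, and ranged from -0.1163 without mutant embryo 2 to -0.037 without mutant embryo 1. That scaling also moved the median of the pocket protein list from -0.0377 to 0.0412, of the other replication genes from -0.1678 to -0.0875 and of the other mitosis genes from -0.1072 to -0.0271. Leaving out embryos gave -0.1776 to -0.1286 for the replication list, -0.1162 to -0.0873 for the mitosis list, 0.0193 (without mutant embryo 2) to 0.2179 (without mutant embryo 1) for the *Myc* network, -0.1145 (without the wild-type control) to 0.1097 (without the heterozygous control) for the histones, -0.1649 to -0.0572 for the p53 list and -0.065 to 0.0124 (without mutant embryo 1) for the pocket protein list. On the gene strand alone, E2F words were in 1.2% of all promoters, TTTGAA in 10.2% (17.9% on both strands), CCAAT in 21.1% (37.4%) and both in 2.2%, and CCAAT was in 44.0% of the members' promoters (66.0%).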
